A study of Mus musculus with 8 samples.

Results

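Interferon response genes are the subject of this report: 43 listed genes of the interferon pathway and of the response it induces, measured in cerebral cortex of SAMP8 and SAMR1 mice. The 43 genes were listed with earlier results of these data known, so the shares below describe the list and do not test it. Their probe sets were taken by gene symbol alone, whatever their signal. A probe set is a group of short oligonucleotides that together read 1 transcript. Of the 43 genes, 42 were found, on 73 of the 45037 probe sets tested, with 1 probe set for 24 genes and up to 5 for the other 18. *Isg15*, the ubiquitin-like modifier of the response, was only on a probe set shared with *Gm9706*, which is given apart. The arrays formed 4 groups of 2: SAMP8 at 1 year, SAMP8 at 16 weeks, SAMR1 at 1 year and SAMR1 at 16 weeks. SAMP8 is the senescence-accelerated, prone strain of mouse and SAMR1 the senescence-resistant strain that serves as its control. All mice were untreated males of an inbred line and none carried a transgene or an engineered allele that the labels name. In the labels the genotype of all 4 SAMP8 samples is spelled SAMR8, and the titles were used to group them. SAMP8 and SAMR1 differ over the whole genome, and a strain difference here cannot be assigned to single loci. The strain comparison is called late events at 1 year and early events at 16 weeks. The comparison of 1 year with 16 weeks is called accelerated aging in SAMP8 and physiological aging in SAMR1.

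Interferons are secreted proteins that cells release when they sense foreign or misplaced nucleic acid. Type I interferons bind the receptor of *Ifnar1* and *Ifnar2*, whose kinases *Jak1* and *Tyk2* phosphorylate STAT2, which together with IRF9 is part of the complex ISGF3. ISGF3 binds interferon-stimulated response elements (ISRE) in promoters. Interferon gamma acts through *Ifngr1* and *Ifngr2* and leads to binding at gamma-activated sites (GAS). In brain, microglia, astrocytes, endothelium and neurons can all respond, and the induced genes are known to be raised in viral infection and with age.

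All 8 arrays had medians between 4.32 and 4.36 on the log2 scale, and the 2 arrays of a group correlated at 0.995 to 0.9981. Markers of cortical neurons, the labelled tissue, averaged 9.09 to 9.28 in the SAMP8 arrays and 9.06 to 9.22 in the SAMR1 arrays. Choroid plexus RNA was not even between the arrays: the 7 markers of choroid plexus and ependyma averaged 5.14 in SAMR1 16 weeks replicate 1 and 4.44 in replicate 2, and *Ttr*, the choroid plexus transthyretin gene, was at 11.82 and 8.29 in these arrays. In the others *Ttr* was at 11.35 to 12.12 in the 4 arrays at 1 year, and at 7.81 and 8.45 in SAMP8 at 16 weeks. The number called over both ages is therefore also given without that replicate 1, as are median strain differences. Other counts are not. The interferon response genes were mostly dim. The brightest probe set lay under the median of all probe sets (4.35) for 17 of the 42 genes, and 2 were bright, *Jak1* at the 91.2nd and *Ifi27* at the 82.6th percentile. Arrays of the same group had a median SD of 0.06 for these genes, and the median standard error of a comparison was 0.08 for a pair of groups and 0.06 for the strains over both ages. The labels do not say that each array measured a separate mouse, and a p-value here reflects array-to-array spread, which may be technical. In bulk tissue, fewer cells of a type and less RNA per cell cannot be told apart.

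As a group the genes were higher in SAMP8 cortex than in SAMR1 cortex at both ages, by small amounts. Each gene is represented by its brightest probe set. Their mean log2 signal was 4.66 and 4.68 in SAMP8 at 1 year, 4.69 and 4.67 in SAMP8 at 16 weeks, 4.53 and 4.53 in SAMR1 at 1 year, and 4.54 and 4.51 in SAMR1 at 16 weeks. All 4 SAMP8 arrays thus lay above all 4 SAMR1 arrays, whereas the mean over all 19761 genes was 5.31 to 5.35 in both strains. The 30 induced members, that is all but receptors, kinases and transcription factors, averaged 4.32 to 4.36 in the SAMP8 arrays and 4.14 to 4.18 in the SAMR1 arrays. Over both ages the strain difference was positive for 34 of the 42 genes (81%, against 50.4% of all genes), with a median log2 difference of 0.12, against 0.002 over all genes.

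**Figure D1:**
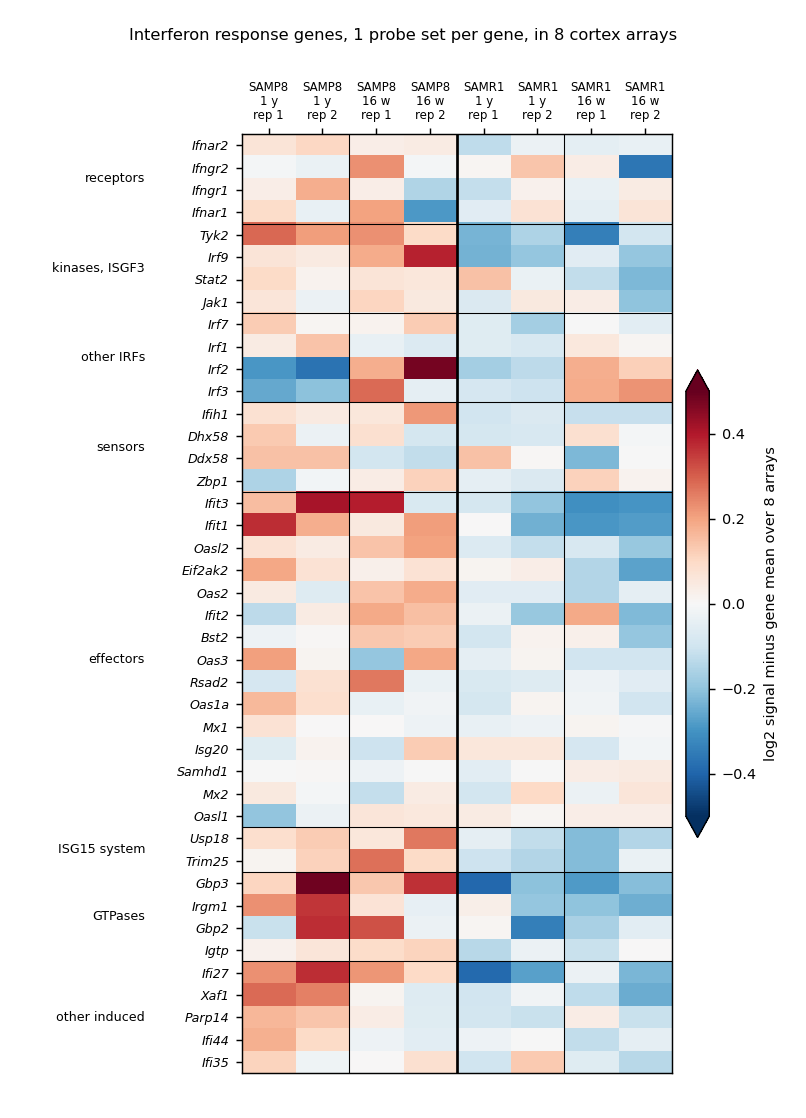
log2 signal of the brightest probe set of each of the 42 interferon response genes, minus the gene's mean over the 8 arrays (colour, saturated beyond ± 0.5), with arrays in columns and genes in rows by role. The 4 SAMP8 columns are redder than the 4 SAMR1 columns for most genes, and *Irf2* instead separates by age within each strain.

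With limma and Benjamini-Hochberg adjustment over all probe sets, 5 of the 73 member probe sets were called in the strain comparison over both ages at an adjusted p under 0.05 (6.85%, against 1.89% of all probe sets), all 5 higher in SAMP8: *Gbp3*, *Ifi27*, *Ifit1*, *Tyk2* and *Irf9*. In late events 1 was called, *Ifi27* (1.37%, against 0.688% of all probe sets), and in early events 0 were called, against 1.23% of all probe sets. For early events the smallest adjusted p from limma was 0.0592, and 19 member probe sets were at an unadjusted p under 0.05. An ordinary t test between the arrays of the groups compared was also run here. The paper names its software but not its test. In early events this t test called 0 of all probe sets after adjustment, so its 0 for the members says nothing about them. The strain difference did not pass the test of a change with age in any member: 0 of 73 were called, against 0.00222% of all probe sets, with 4 at an unadjusted p under 0.05 and a smallest adjusted p of 0.647. At an unadjusted p under 0.05, 18 of the 42 genes (42.9%) were higher in SAMP8 over both ages, against 6.66% of all genes, and 0 were lower, against 6.02%. In late events 15 genes (35.7%) were higher, against 3.76% of all genes, and 0 lower, against 3.83%. In early events 16 genes (38.1%) were higher, against 6.76%, and 0 lower, against 6.43%. For 13 of the 42 genes (31%, against 2.57% of all genes) every SAMP8 array lay above every SAMR1 array, and for 0 (against 2.09%) every SAMP8 array lay below: the 13 were *Gbp3*, *Ifi27*, *Ifih1*, *Ifit1*, *Ifit3*, *Ifnar2*, *Igtp*, *Irf7*, *Irf9*, *Oasl2*, *Trim25*, *Tyk2* and *Usp18*.

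Single arrays decided how many member probe sets were called over both ages. Their number was 2 without SAMP8 1 year replicate 1, 0 without SAMP8 1 year replicate 2, and 4 and 3 without the SAMP8 16 weeks replicates 1 and 2. It was 1 and 2 without the SAMR1 1 year replicates 1 and 2, and 7 and 6 without the SAMR1 16 weeks replicates 1 and 2, where 1 of the 7 was lower in SAMP8. The share of all probe sets called moved as well, between 0.879% without SAMR1 1 year replicate 1 and 2.96% without SAMR1 16 weeks replicate 2. The number of genes higher at an unadjusted p changed too, as did that number over all genes. Without any 1 array, the median log2 difference of the members was 0.10 to 0.14 over both ages. It was 0.10 to 0.19 in early events and 0.11 to 0.14 in late events. Without SAMR1 16 weeks replicate 1, the array with more choroid plexus RNA than its replicate, the median was 0.14 over both ages and 0.19 in early events. Late events use no 16 weeks array, so their median of 0.13 could not change and does not bear on choroid plexus RNA.

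Late and early events share no array. Of the 15 genes higher in late events and the 16 higher in early events at an unadjusted p, 9 were in both (60% and 56.2%): *Gbp3*, *Ifi27*, *Ifit1*, *Ifit3*, *Irf9*, *Irgm1*, *Tyk2*, *Usp18* and *Xaf1*. Over all genes, 274 were higher in both, 36.9% of the 743 in late and 20.5% of the 1336 in early events. The same fit gave both comparisons 1 estimate of the spread per probe set. The log2 difference was positive at both ages for 28 of the 42 genes (66.7%, against 28.4% of all genes) and negative at both for 1 (2.38%, against 25.8%), *Irf3*.

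**Figure D2:**
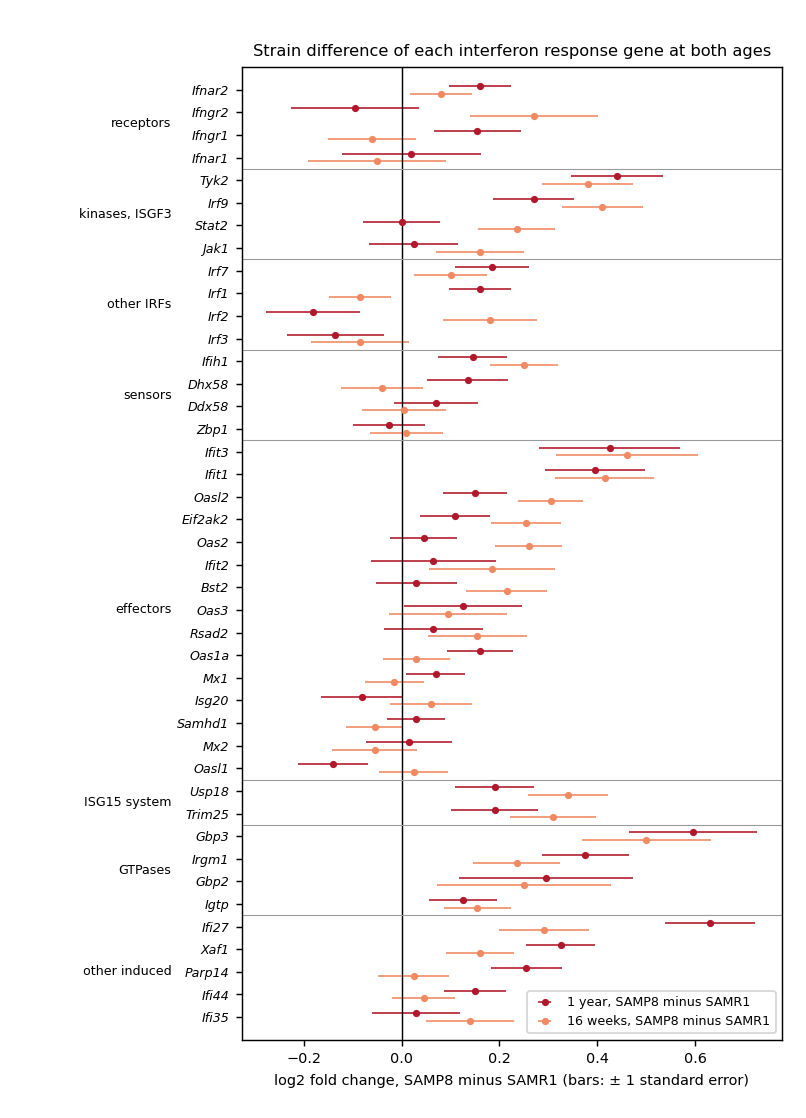
log2 fold change, SAMP8 minus SAMR1, of each interferon response gene at 1 year and at 16 weeks (points) with ± 1 standard error from limma (bars), 2 arrays per group, genes grouped by role. Both points lie right of 0 for 28 of the 42 genes, with the largest values for *Ifi27* (0.63 at 1 year) and *Gbp3* (0.60 and 0.50).

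Few of these genes were called with age. In accelerated aging 1 of the 73 probe sets was called (1.37%, against 5.07% of all probe sets), *Irf2*, which fell. In physiological aging limma called 0, against 5.48% of all probe sets, with a smallest adjusted p of 0.0801. There 6 member probe sets had an unadjusted p under 0.05. The ordinary t test called 0 of all probe sets there after adjustment. At an unadjusted p, 5 of the 42 genes were higher at 1 year in SAMP8 (11.9%, against 8.26% of all genes) and 5 lower (11.9%, against 15.4%). In SAMR1, 2 were higher at 1 year (4.76%, against 7.73%) and 2 lower (4.76%, against 15.4%). The median log2 change with age of the 42 genes was 0.01 in SAMP8 and 0.00 in SAMR1, against −0.03 over all genes in each strain.

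Among the receptors, none of the 8 probe sets of 4 genes was called. *Ifnar2*, the chain of the type I receptor that exists in signalling and soluble forms, had on its brightest probe set 6.37 and 6.41 in SAMP8 at 1 year, 6.34 and 6.35 in SAMP8 at 16 weeks, 6.18 and 6.28 in SAMR1 at 1 year, and 6.26 and 6.27 in SAMR1 at 16 weeks. Its SAMP8 and SAMR1 arrays did not overlap, and the log2 difference over both ages was 0.12 ± 0.04 (SE, adjusted p = 0.288 from limma). *Ifnar1*, the other chain, differed by −0.02 ± 0.10 on its brightest probe set, and its arrays there overlapped. Its other probe set differed by −0.24 ± 0.11 and did not pass (adjusted p = 0.3965 from limma). The interferon gamma receptor genes differed by 0.05 (*Ifngr1*) and 0.09 (*Ifngr2*) on their brightest probe sets. The median log2 difference of the 4 genes was 0.07.

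The kinase and ISGF3 genes differed more, with a median log2 difference of 0.23 over both ages. *Tyk2*, which encodes the kinase bound to IFNAR1, had a log2 signal of 5.01 and 4.93 in SAMP8 at 1 year, 4.95 and 4.82 in SAMP8 at 16 weeks, 4.49 and 4.57 in SAMR1 at 1 year, and 4.38 and 4.63 in SAMR1 at 16 weeks. The strains did not overlap at either age, with a gap of 0.19 between the lowest SAMP8 and the highest SAMR1 array. *Tyk2* averaged 4.93 ± 0.08 in SAMP8 and 4.52 ± 0.11 in SAMR1 (SD, n = 4 arrays each), 1.33-fold, and the log2 difference of 0.41 ± 0.07 (SE) passed the test over both ages (adjusted p = 0.0177) but not at 1 year (0.44, adjusted p = 0.117) or 16 weeks (0.38, adjusted p = 0.114). The call was lost without any single 1 year array of either strain or without SAMP8 16 weeks replicate 1, where the difference was 0.38 to 0.43 and the adjusted p 0.0632 to 0.107, and it held without the other 3 arrays. *Jak1*, the partner kinase, differed by 0.09 ± 0.06 on its brightest probe set and did not pass.

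*Irf9*, the DNA-binding subunit of ISGF3, had 4.47 and 4.45 in SAMP8 at 1 year, 4.59 and 4.79 in SAMP8 at 16 weeks, 4.17 and 4.21 in SAMR1 at 1 year, and 4.35 and 4.21 in SAMR1 at 16 weeks. Every SAMP8 array was above every SAMR1 array, by at least 0.10, and the highest pair was SAMP8 at 16 weeks. The means were 4.58 ± 0.16 in SAMP8 and 4.24 ± 0.08 in SAMR1 (SD, n = 4 arrays each), and the log2 difference of 0.34 ± 0.06 (SE) passed the test (1.27-fold, adjusted p = 0.0251). At 16 weeks the difference was 0.41 (adjusted p = 0.0619) and at 1 year 0.27 (adjusted p = 0.365). The call over both ages ended without any single 1 year array (adjusted p 0.0902 to 0.135) and without SAMP8 16 weeks replicate 2 (0.29, adjusted p = 0.0656). *Stat2*, the other subunit measured, had 5.67 and 5.59 in SAMP8 at 1 year, 5.64 and 5.63 in SAMP8 at 16 weeks, 5.72 and 5.54 in SAMR1 at 1 year, and 5.45 and 5.35 in SAMR1 at 16 weeks. Its strains overlapped at 1 year and were apart at 16 weeks, where the log2 difference was 0.24 ± 0.08 (adjusted p = 0.227). At 1 year the *Stat2* difference was 0.00.

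Of the other interferon regulatory factors 1 was called, and with age. *Irf2*, known as an antagonist of IRF1 at shared promoter sites, had 5.52 and 5.44 in SAMP8 at 1 year, 5.99 and 6.29 in SAMP8 at 16 weeks, 5.64 and 5.68 in SAMR1 at 1 year, and 5.99 and 5.93 in SAMR1 at 16 weeks. Within each strain both 1 year arrays were below both 16 weeks arrays, and the strains overlapped. In SAMP8 it fell by 0.66 ± 0.10 on the log2 scale (SE, to 0.63 of the level at 16 weeks, adjusted p = 0.0168), and in SAMR1 the change was −0.30 ± 0.10 (adjusted p = 0.105). The test of a difference between these changes gave −0.36 ± 0.14 with an adjusted p of 0.664. The *Irf2* probe set is of the s_at kind, which can read several transcripts or family members. The call in SAMP8 ended without SAMP8 1 year replicate 1 (adjusted p = 0.0998), SAMP8 1 year replicate 2 (0.105) or SAMP8 16 weeks replicate 2 (−0.51, adjusted p = 0.0598). Markers of choroid plexus and ependyma moved with age in SAMP8, with list means of 5.15 and 4.86 at 1 year against 4.41 and 4.53 at 16 weeks, and their part in the *Irf2* change was not tested. *Irf3*, the factor that switches on interferon beta after sensing, differed between ages in the same direction on its brightest probe set, by −0.35 ± 0.10 in SAMP8 (adjusted p = 0.0801) and −0.30 ± 0.10 in SAMR1 (adjusted p = 0.114). That probe set is of the x_at kind, which can read several transcripts. Its other probe sets changed less, by −0.19, −0.08 and −0.075 in SAMP8 and by 0.055, −0.215 and −0.065 in SAMR1. *Irf1*, an activator induced by interferon gamma, and *Irf7*, which drives interferon alpha genes, differed between the strains over both ages by 0.04 and 0.14, and neither passed.

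None of the 9 probe sets of the 4 nucleic acid sensors was called, and the median log2 difference between the strains was 0.04. *Ifih1*, the long double-stranded RNA sensor MDA5, had 3.43 and 3.40 in SAMP8 at 1 year, 3.41 and 3.57 in SAMP8 at 16 weeks, 3.26 and 3.28 in SAMR1 at 1 year, and 3.24 and 3.24 in SAMR1 at 16 weeks. The strains did not overlap, with a difference over both ages of 0.20 ± 0.05 (SE, adjusted p = 0.110). *Ddx58*, the sensor RIG-I, *Dhx58*, its relative LGP2, and *Zbp1*, which binds Z-form nucleic acid, differed by 0.04, 0.05 and −0.01.

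Of the 15 antiviral effector genes, 5 were higher in SAMP8 over both ages at an unadjusted p under 0.05 (against 6.66% of all genes) and 1, *Ifit1*, passed the adjusted test, with a median log2 difference of 0.11 over the 15. *Ifit1*, whose protein binds foreign RNA at its cap end, had 4.02 and 3.83 in SAMP8 at 1 year, 3.70 and 3.86 in SAMP8 at 16 weeks, 3.65 and 3.41 in SAMR1 at 1 year, and 3.36 and 3.37 in SAMR1 at 16 weeks. The strains were apart by 0.05 between the lowest SAMP8 array and the highest SAMR1 array. The means were 3.85 ± 0.13 in SAMP8 and 3.45 ± 0.14 in SAMR1 (SD, n = 4 arrays each), and the log2 difference of 0.41 ± 0.07 (SE) passed (1.32-fold, adjusted p = 0.0286). Its probe set lay at the 33.6th percentile of all signals. The call held without SAMR1 1 year replicate 1 or SAMR1 16 weeks replicate 2 and ended without any of the other 6 arrays, SAMR1 16 weeks replicate 1 included (0.40, adjusted p = 0.0572), with an adjusted p of at most 0.122.

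*Ifit3*, whose protein stabilises IFIT1 in human cells, showed a difference of like size with more spread. Its log2 signal was 5.19 and 5.45 in SAMP8 at 1 year, 5.43 and 4.96 in SAMP8 at 16 weeks, 4.95 and 4.84 in SAMR1 at 1 year, and 4.73 and 4.74 in SAMR1 at 16 weeks. SAMP8 16 weeks replicate 2 almost met the highest SAMR1 array, and the log2 difference of 0.44 ± 0.10 (SE) did not pass (adjusted p = 0.0831). *Ifit2*, the third family gene here, had 5.08 and 5.25 in SAMP8 at 1 year, 5.40 and 5.36 in SAMP8 at 16 weeks, 5.18 and 5.02 in SAMR1 at 1 year, and 5.40 and 4.99 in SAMR1 at 16 weeks. These arrays overlapped fully, with a difference of 0.13 ± 0.09 (adjusted p = 0.633). The family members are similar in sequence, and how far their probes read each other was not tested.

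The remaining effectors were lower in signal or closer between the strains. *Oasl2*, of the 2′-5′ oligoadenylate synthetase family, had 3.07 and 3.04 in SAMP8 at 1 year, 3.14 and 3.20 in SAMP8 at 16 weeks, 2.93 and 2.88 in SAMR1 at 1 year, and 2.92 and 2.81 in SAMR1 at 16 weeks. It did not overlap between the strains and differed by 0.23 ± 0.05 (SE, adjusted p = 0.0533). *Oas2*, *Oas3* and *Oas1a* of the same family differed by 0.15, 0.11 and 0.10, and *Oasl1*, which restrains IRF7 translation in mice, by −0.06. *Eif2ak2*, the kinase PKR that stops translation, had opposite directions on its probe sets: 0.18 ± 0.05 (adjusted p = 0.152) on the brightest and −0.26 ± 0.05 (adjusted p = 0.0513) on the dimmest, which lay at the 4.8th percentile of all signals. For *Rsad2* (viperin), *Bst2* (tetherin), *Mx1*, *Mx2*, the exonuclease gene *Isg20* and the dNTP hydrolase gene *Samhd1*, the brightest probe sets differed by −0.02 to 0.12, and none passed. Probe sets of 6 members, *Dhx58*, *Eif2ak2*, *Jak1*, *Parp14*, *Samhd1* and *Zbp1*, did not all point the same way.

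Of the ISG15 system, *Usp18*, which removes ISG15 from proteins and dampens signalling at IFNAR2, had 3.56 and 3.60 in SAMP8 at 1 year, 3.53 and 3.74 in SAMP8 at 16 weeks, 3.43 and 3.35 in SAMR1 at 1 year, and 3.26 and 3.33 in SAMR1 at 16 weeks. Its strains did not overlap, and the difference over both ages was 0.27 ± 0.06 (SE, adjusted p = 0.0645). *Trim25*, a ligase for ISG15 and ubiquitin, did not overlap either and differed by 0.25 ± 0.06 on its brightest probe set (adjusted p = 0.110), while its other probe sets differed by 0.10 and 0.01. The probe set that *Isg15* shares with *Gm9706* had 3.78 and 3.81 in SAMP8 at 1 year, 4.05 and 3.85 in SAMP8 at 16 weeks, 3.65 and 3.69 in SAMR1 at 1 year, and 3.91 and 3.83 in SAMR1 at 16 weeks. These overlapped between the strains, and the difference of 0.10 ± 0.06 did not pass (adjusted p = 0.489).

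Over both ages the GTPase genes had the largest median log2 difference of the roles, 0.29, with the ISG15 system next at 0.26. All 4 GTPase genes had a positive difference. So did every measured gene of the kinase and ISGF3, ISG15 system and other induced roles. *Gbp3*, a guanylate-binding protein that acts on intracellular pathogens, had 3.39 and 3.77 in SAMP8 at 1 year, 3.42 and 3.65 in SAMP8 at 16 weeks, 2.89 and 3.08 in SAMR1 at 1 year, and 3.0 and 3.07 in SAMR1 at 16 weeks. The gap between the lowest SAMP8 and the highest SAMR1 array was 0.31, the widest of the called members, although the probe set lay at only the 21.4th percentile of all signals. *Gbp3* averaged 3.56 ± 0.18 in SAMP8 and 3.01 ± 0.09 in SAMR1 (SD, n = 4 arrays each), and the log2 difference of 0.55 ± 0.09 (SE) passed (1.46-fold, adjusted p = 0.0234). The call ended without SAMP8 1 year replicate 2 (0.45, adjusted p = 0.0598), SAMP8 16 weeks replicate 2, either SAMR1 1 year array or SAMR1 16 weeks replicate 1 (0.53, adjusted p = 0.0517), where the adjusted p was at most 0.129. *Irgm1*, an immunity-related GTPase of the autophagy and vacuole pathways, had 5.82 and 5.95 in SAMP8 at 1 year, 5.66 and 5.55 in SAMP8 at 16 weeks, 5.62 and 5.40 in SAMR1 at 1 year, and 5.39 and 5.35 in SAMR1 at 16 weeks. SAMP8 at 16 weeks met SAMR1 at 1 year, while the strains were apart within each age, and the difference of 0.31 ± 0.06 (SE) did not pass (adjusted p = 0.0533). *Gbp2* and *Igtp* differed by 0.27 and 0.14.

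Among the other induced genes, *Ifi27*, which encodes a small hydrophobic protein of mitochondrial and nuclear membranes, was called both in late events and over both ages. On its brightest probe set the log2 signal was 7.08 and 7.22 in SAMP8 at 1 year, 7.07 and 6.95 in SAMP8 at 16 weeks, 6.46 and 6.58 in SAMR1 at 1 year, and 6.82 and 6.62 in SAMR1 at 16 weeks. That probe set is of the s_at kind, which can read several transcripts or family members. The lowest SAMP8 array was 0.13 above the highest SAMR1 array, and the lowest pair was SAMR1 at 1 year. At 1 year *Ifi27* averaged 7.15 ± 0.10 in SAMP8 and 6.52 ± 0.09 in SAMR1 (SD, n = 2 arrays each), a log2 difference of 0.63 ± 0.09 (SE, 1.55-fold, adjusted p = 0.0223 from limma). At 16 weeks the difference was 0.29 ± 0.09 (adjusted p = 0.208), and over both ages 0.46 ± 0.07 (1.38-fold, adjusted p = 0.00933). The late call ended without any single 1 year array (0.56 to 0.70, adjusted p 0.0822 to 0.251), which leaves 1 array in that group. The call over both ages ended without SAMP8 1 year replicate 2 (0.43, adjusted p = 0.0533) or SAMR1 1 year replicate 1 (0.43, adjusted p = 0.0635). The 0.34 by which the late difference exceeded the early one did not pass (adjusted p = 0.671), and the other probe set of *Ifi27* differed by 0.39 at 1 year and 0.40 at 16 weeks, without passing. *Xaf1*, an interferon-induced antagonist of the apoptosis inhibitor XIAP, had 4.80 and 4.77 in SAMP8 at 1 year, 4.53 and 4.45 in SAMP8 at 16 weeks, 4.42 and 4.50 in SAMR1 at 1 year, and 4.39 and 4.27 in SAMR1 at 16 weeks. The strains were apart within each age, and the difference over both ages was 0.24 ± 0.05 (SE, adjusted p = 0.0524). *Parp14*, an ADP-ribosyltransferase, differed by 0.14, *Ifi44* by 0.10 and *Ifi35* by 0.09, none of which passed.

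**Figure D3:**
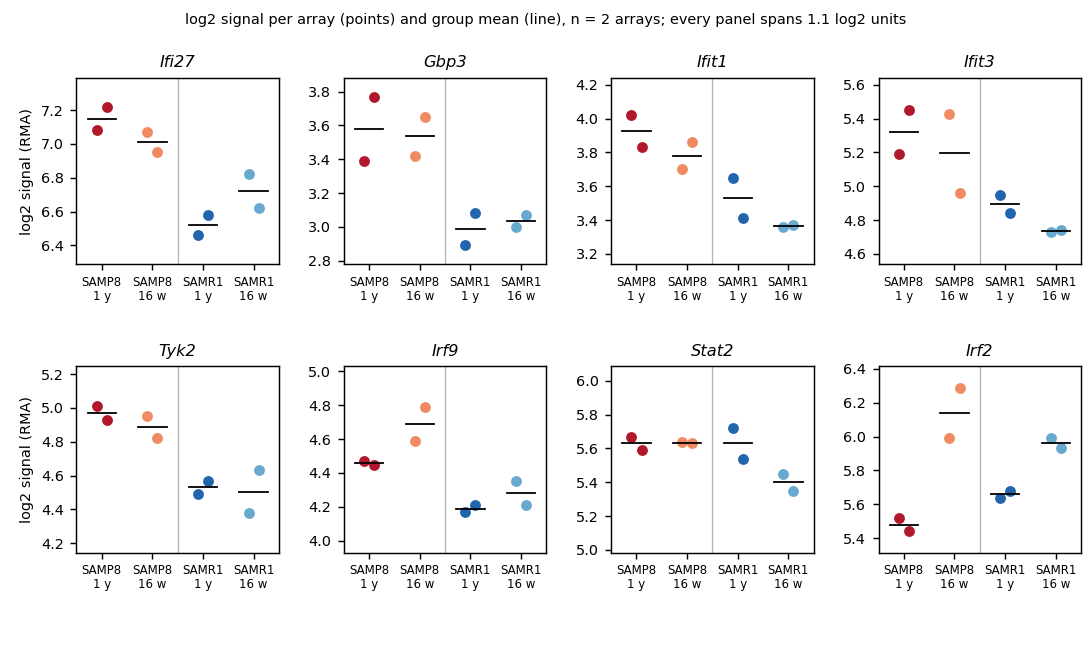
log2 signal of the brightest probe set of 8 interferon response genes in each array (points, 2 per group) with the group mean (line), SAMP8 left and SAMR1 right in each panel. *Ifi27*, *Gbp3*, *Ifit1*, *Ifit3*, *Tyk2* and *Irf9* have all SAMP8 points above all SAMR1 points, *Stat2* does not, and *Irf2* separates by age, with 5.44 and 5.52 in SAMP8 at 1 year and 5.99 and 6.29 in SAMP8 at 16 weeks.

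The promoters of *Ifit1*, *Ifit3*, *Gbp3*, *Irgm1* and *Irf2* are shown as examples, picked among the members whose window matches the ISRE core. *Ifit1* and *Gbp3* were called between the strains and *Irf2* with age in SAMP8, while *Ifit3* and *Irgm1* were not called. The windows run from 250 bases before to 50 bases after the RefSeq start site of build GRCm38.p6, 5′ to 3′ on the gene's strand, with matches to the ISRE core GAAANNGAAA, on either strand, in capitals. They lie at chr19:34640639-34640938 (plus strand), chr19:34583279-34583578 (plus strand), chr3:142559794-142560093 (plus strand), chr11:48871371-48871670 (minus strand) and chr8:46739495-46739794 (plus strand). A run of capitals longer than 1 match holds 2 overlapping matches.
Ifit1: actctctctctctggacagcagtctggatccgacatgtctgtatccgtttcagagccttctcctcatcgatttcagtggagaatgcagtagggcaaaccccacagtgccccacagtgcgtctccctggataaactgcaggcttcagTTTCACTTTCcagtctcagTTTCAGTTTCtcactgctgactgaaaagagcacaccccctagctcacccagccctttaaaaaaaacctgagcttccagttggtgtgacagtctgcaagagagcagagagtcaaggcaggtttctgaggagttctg
Ifit3: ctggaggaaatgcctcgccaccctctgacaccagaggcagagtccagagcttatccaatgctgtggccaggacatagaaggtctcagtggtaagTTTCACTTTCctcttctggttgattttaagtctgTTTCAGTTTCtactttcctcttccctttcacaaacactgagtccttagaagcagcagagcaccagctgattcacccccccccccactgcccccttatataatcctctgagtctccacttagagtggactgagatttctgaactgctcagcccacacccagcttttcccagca
Gbp3: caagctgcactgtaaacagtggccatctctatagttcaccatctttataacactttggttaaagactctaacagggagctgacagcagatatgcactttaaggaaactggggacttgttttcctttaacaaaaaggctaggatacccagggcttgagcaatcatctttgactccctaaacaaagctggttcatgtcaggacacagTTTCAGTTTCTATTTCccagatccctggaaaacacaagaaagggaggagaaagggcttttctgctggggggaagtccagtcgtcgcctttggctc
Irgm1: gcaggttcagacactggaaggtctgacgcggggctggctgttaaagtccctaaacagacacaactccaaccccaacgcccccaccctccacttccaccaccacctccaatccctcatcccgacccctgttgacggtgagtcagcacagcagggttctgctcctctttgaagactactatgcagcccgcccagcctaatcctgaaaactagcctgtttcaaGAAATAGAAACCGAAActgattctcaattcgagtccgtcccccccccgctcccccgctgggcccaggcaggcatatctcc
Irf2: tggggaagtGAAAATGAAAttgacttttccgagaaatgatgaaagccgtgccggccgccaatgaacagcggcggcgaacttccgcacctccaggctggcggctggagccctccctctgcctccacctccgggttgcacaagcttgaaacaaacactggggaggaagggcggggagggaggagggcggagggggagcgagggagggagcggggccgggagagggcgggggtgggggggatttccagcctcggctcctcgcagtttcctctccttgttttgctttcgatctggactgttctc

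The first bases of the matches were at −104 and −85 from the start site in *Ifit1*, −156 and −122 in *Ifit3*, −45 and −39 in *Gbp3*, −30 and −24 in *Irgm1*, and −241 in *Irf2*. RefSeq promoters were matched by symbol for 35 of the 43 genes, with 41 windows. A match to GAAANNGAAA was in 16 of the 41 windows, against 3.44% of the 32851 promoters of the table, and a match to the GAS core TTCNNNGAA, a palindrome, in 12 of the 41, against 8.3%. The windows of *Tyk2* and *Irf9* held no match to either. Over both ages the median log2 difference between the strains was 0.14 for the 15 measured genes with an ISRE match and 0.09 for the 19 without. In late events the order was the other way, with 0.13 for the genes with a match and 0.15 for those without, and in early events they were 0.24 with a match and 0.10 without. A match is a description of these letters and not of a bound site. *Parp14*, *Usp18*, *Mx2*, *Oas2*, *Mx1*, *Ifi27*, *Dhx58* and *Zbp1* had no entry in the table used here.

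**Figure D4:**
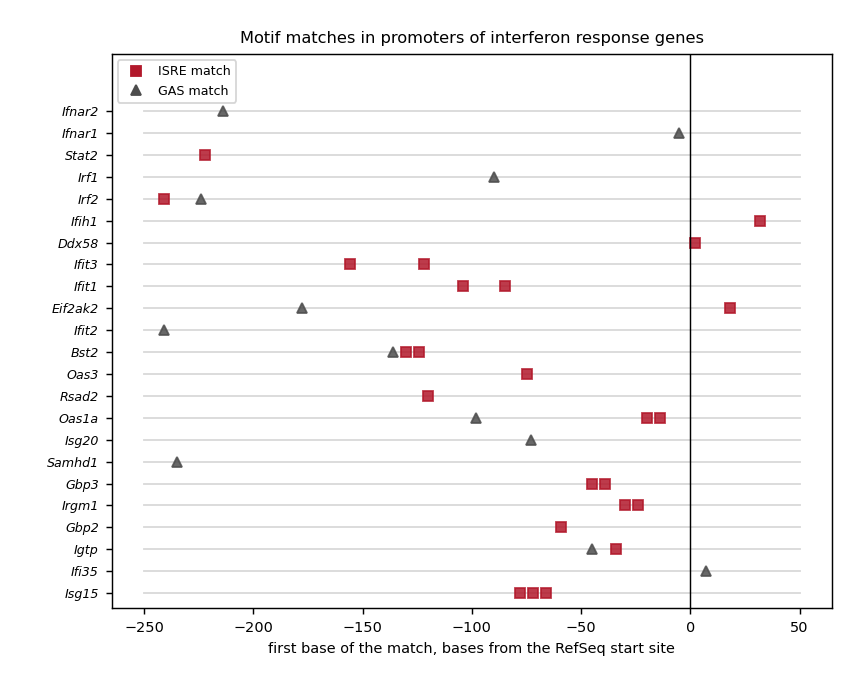
Position of each ISRE match (squares) and GAS match (triangles) in the promoter windows of the interferon response genes that hold at least 1 match, in bases from the RefSeq start site (0), from 250 bases before to 50 after. Most ISRE matches lie before the start site, and *Isg15* holds 3 that overlap at −78, −72 and −66.

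The genes next to the called members were mostly not called, as was most of the array (1.89% of all probe sets called over both ages). Whether these regions differ between the strains was not tested. Among the 10 measured genes nearest to each in RefSeq gene order, 5 on each side, the strain comparison over both ages called 1 near *Gbp3*, the bone morphogenetic protein receptor gene *Bmpr1b*, and 0 near *Ifi27*, *Ifit1*, *Irf9* and *Tyk2*. *Ifit1* itself was the 1 called neighbour of *Ifit3*.

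Further interferon-induced genes had mostly positive strain differences. Of 62 listed, 52 were measured, with a positive difference for 41 and a negative one for 11, and over both ages 19 were higher in SAMP8 at an unadjusted p under 0.05 (against 6.66% of all genes) and 1 lower (against 6.02%), with a median log2 difference of 0.08. After adjustment 5 of their 89 probe sets were higher, against 1.89% of all probe sets called in either direction: *Ly6a*, a surface antigen of endothelium and lymphoid cells, by 0.67 ± 0.08 (SE, adjusted p = 0.00375), *Trim34a* by 0.43, *Lgals3bp*, a secreted galectin ligand, by 0.40, *Cmpk2*, a mitochondrial nucleotide kinase, by 0.37, and *Rtp4* by 0.37. *Ly6a* had 6.21 and 6.36 in SAMP8 at 1 year, 5.98 and 6.22 in SAMP8 at 16 weeks, 5.63 and 5.34 in SAMR1 at 1 year, and 5.54 and 5.57 in SAMR1 at 16 weeks. It did not overlap between the strains and was also called in late events (0.80), and *Lgals3bp* was called in early events (0.41). With age, *Ifitm2* fell by 0.42 in SAMP8 and by 0.39 in SAMR1, *Ifit1bl2* rose by 0.42 in SAMP8 and 0.33 in SAMR1, a second probe set of *Cmpk2* fell in both strains (−0.38 and −0.36), and *Herc6* rose in SAMR1 by 0.28.

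The interferon genes themselves gave no call. Of 19 listed ligands 9 were measured, among them *Ifnb1* and *Ifng*, with a list mean of 3.41 to 3.45 in the SAMP8 arrays and 3.40 to 3.44 in the SAMR1 arrays, at a median percentile of 18.4. Over both ages limma called 0 of their 9 probe sets between the strains, and 0 reached an unadjusted p under 0.05. Of 17 measured adaptors and kinases downstream of the sensors, none was called between the strains. With age, *Rnaseh2c*, a subunit of RNase H2, fell on 1 probe set in SAMP8 (−0.49) and *Ticam1*, the adaptor TRIF, fell in SAMR1 (−0.34). Of 12 measured negative regulators, *Ptpn11*, the phosphatase SHP2, rose with age in both strains (0.30 in SAMP8 and 0.31 in SAMR1). A probe set of the corepressor gene *Irf2bp2* also rose with age in both strains (0.56 in each), while another was lower in SAMP8 than in SAMR1 over both ages (−0.56), and *Irf2bpl* fell with age in SAMP8 (−0.51).

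Markers of cell types that respond to interferon were compared beside these genes. The 16 microglia markers averaged 6.29 to 6.44 in the SAMP8 arrays and 6.31 to 6.41 in the SAMR1 arrays, with a median log2 difference of 0.01 over both ages, and the 1 year arrays were higher, at 6.42 and 6.44 in SAMP8 and 6.41 and 6.41 in SAMR1, than the 16 weeks arrays, at 6.33 and 6.29 in SAMP8 and 6.31 and 6.33 in SAMR1. Of their 23 probe sets 1 was called higher in SAMP8 over both ages, *Aif1* (0.34, and 0.51 in late events), and 1 was called lower. At an unadjusted p under 0.05, 2 microglia genes were higher and 3 lower. Lymphocyte markers averaged 3.83 to 3.87 in SAMP8 and 3.81 to 3.89 in SAMR1, and neutrophil and monocyte markers 3.60 to 3.63 and 3.60 to 3.61, and limma called 0 over both ages in either list, with 0 genes at an unadjusted p under 0.05. Oligodendrocyte markers were lower in SAMP8, with list means of 8.65 to 8.71 in SAMP8 and 8.74 to 8.96 in SAMR1. Over both ages 12 of 24 probe sets were called lower, against 1.89% of all probe sets called in either direction. Their median log2 difference was −0.285 in early events (7 of 8 genes lower) and −0.105 in late events (5 lower and 3 higher). Pericyte and mural cell markers averaged 5.38 to 5.67 in SAMP8 and 5.37 to 5.56 in SAMR1. Of their 19 probe sets 2 were called higher, both of *Rgs5* (1.15 and 0.67). Neither is the brightest of *Rgs5*, and no brightest probe set of this list differed by more than 0.24. Choroid plexus and ependyma markers averaged 4.41 to 5.15 in SAMP8 and 4.44 to 5.28 in SAMR1. These and the markers of astrocytes, brain endothelium, border macrophages and meningeal fibroblasts had 0 probe sets called by limma over both ages and 1 gene each at an unadjusted p under 0.05. Of 30 probe sets of cortical neuron markers 1 was called higher, of *Syt1*, and 1 lower, of *Camk2a*. The part of the oligodendrocyte, pericyte and choroid plexus markers in the differences of the interferon response genes was not tested.

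**Figure D5:**
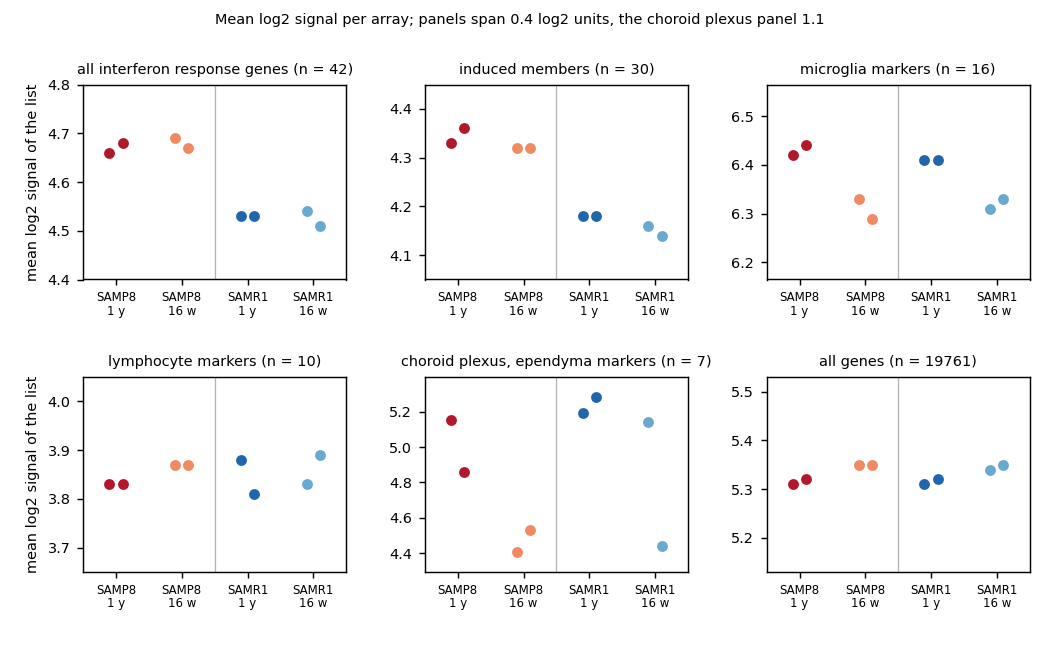
Mean log2 signal of 6 gene lists in each of the 8 arrays (points), SAMP8 left and SAMR1 right, with the number of genes in each panel title. The interferon response genes and their induced members lie higher in all SAMP8 arrays (4.66 to 4.69 against 4.51 to 4.54 for all 42 genes), the microglia markers are higher in all 1 year arrays (6.41 to 6.44 against 6.29 to 6.33), and the choroid plexus markers differ between the 2 arrays of SAMR1 at 16 weeks (5.14 and 4.44).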

How the data were processed

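Total RNA of cerebral cortex was labelled and hybridised to Affymetrix MG-430 PM array strips, 1 array per sample. The authors summarised the scans with RMA (background correction, quantile normalization and probe summary) and deposited 1 table of log2 signals for the 8 arrays. The labelling kit is named differently in the labels, the series text and the paper, and was not resolved here. The deposited tables of the authors' own comparisons (4, with group means, folds and p-values) were not used.

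The log2 signals were taken as deposited. After 40 control probe sets were left out, 45037 were fitted with limma 3.58.1 (R 4.3.3) on 4 group means of 2 arrays, with residual df of 4 and prior df of 4.52. Each comparison was a contrast of these means, moderated by eBayes, two-sided, with Benjamini-Hochberg adjustment over all probe sets and a threshold of 0.05. Every adjusted p in the text is from limma. A gene is represented by its brightest probe set over the 8 arrays, with no filter on dim signals. Suffixes s_at and x_at mark probe sets that can read several transcripts or family members. The fit was tested on simulated data. Precision is limited by the number of arrays.

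Values for each array are given for members called in at least 1 comparison, for *Stat2*, *Irf9* and the *Ifit* genes, and for some further members chosen after their values were seen. Called genes of the pathway lists are named, and those of the marker lists only in part. The members and lists were chosen with earlier results of these data known. Gene order and promoters are from RefSeq GRCm38.p6 (of 19761 genes, 17780 matched by symbol and 653 by synonym). Alternatives tried were other scalings, array weights, an intensity trend with robust variance, a replicate block and 4 arrays at a time. Further ones were a filter on dim probe sets, another choice of probe set, the paper's threshold, an ordinary t test and leaving out each array. The microglia marker called lower is counted but not reported by name here.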

Additional observations from a re-analysis of the deposited data

How the results depend on the processing

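No direction of a called gene turned under any alternative. The 7 calls of single genes, *Ifi27* in late events and over both ages among them, held in all 42 of their limma refits other than those without 1 array, though *Gbp3* and *Ifit1* gave no value once dim probe sets were left out. After adjustment the ordinary t test called 0 of all probe sets in late events and in accelerated aging, *Ifi27* and *Irf2* included. The number of member probe sets called moved with the scaling and the variance model. Over both ages it was 9 with arrays centred on their median, 8 after quantile normalization and 10 with an intensity trend and robust variance (9 higher in SAMP8), against 5, while 1.95% to 2.2% of all probe sets were called. Array weights gave 3 in late events (4.11%, against 1.4% of all probe sets) and 2 in accelerated aging (2.74%, against 5.59%). The trend gave 2 in early events (2.74%, against 1.58%). With the replicate number as a block, 2 were called in late events (2.74%, against 0.757%) and 1 in early events (1.37%, against 1.23%). No other count moved by over 1.5 times with the block. The numbers do not pair the arrays, since deviations of same-numbered arrays correlated at −0.09 to 0.20 between groups. Without the dim probe sets (below the 40th percentile), 26 of the 42 genes were left. At an unadjusted p under 0.05, 8 of these 26 were higher in SAMP8 in late events, 9 in early events and 11 over both ages. The share of all genes left is not given beside them, so these counts are not read further. At the looser threshold of the methods (unadjusted p below 0.05, fold over 1.1), the member probe sets called numbered 18 in late events (24.7%, against 7.57% of all probe sets), 19 in early events (26%, against 14%, with 2 lower in SAMP8), 13 in accelerated aging (17.8%, against 23.1%, with 7 lower at 1 year), 6 in physiological aging (8.22%, against 23.5%, with 4 lower), 23 over both ages (31.5%, against 10.5%, with 2 lower) and 4 for the age effect by strain (5.48%, against 6.92%). The ordinary t test at that threshold called 8 in late events (11%, against 4.36% of all probe sets) and 5 in early events (6.85%, against 5%). It called 5 in accelerated aging (6.85%, against 11.1%) and 2 in physiological aging (2.74%, against 10%). After adjustment it called 0 of all probe sets in each comparison.

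Leaving out 1 array changed the number of member probe sets called in every comparison but the age effect by strain. The number over all probe sets changed as well. The lone array of such a group was assumed to vary like the other groups. Genes higher at an unadjusted p, whose alternatives were chosen after seeing the data, also changed in number, as did their number over all genes. The median log2 difference of the members stayed between 0.10 and 0.14 over both ages without any 1 array. Of the 56 such refits of the 7 calls, 30 lost the call with the direction kept. Fewer arrays enter such a fit, and any other cause was not tested. Dim signals limit what the arrays can show for the 17 genes under the median.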

Other observations

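Genes of antigen presentation by MHC class I, which interferon gamma induces, differed between the strains in both directions. Of 14 measured genes on 29 probe sets, limma called 3 probe sets higher and 4 lower in SAMP8 over both ages, with a median log2 difference of 0.00 over the genes. *B2m*, the invariant light chain, had a log2 signal of 8.33 and 8.50 in SAMP8 at 1 year, 8.28 and 8.28 in SAMP8 at 16 weeks, 7.78 and 7.95 in SAMR1 at 1 year, and 7.72 and 7.79 in SAMR1 at 16 weeks. It did not overlap between the strains and was higher in SAMP8 on both of its probe sets called (0.54 ± 0.06 and 0.67 ± 0.07, SE). Probe sets of the heavy chain gene *H2-D1* went opposite ways. On one the signal was 3.59, 3.89, 3.85 and 3.77 in SAMP8 and 2.71, 2.75, 2.96 and 2.81 in SAMR1 (log2 difference 0.97, adjusted p = 0.000259), and on another it was 3.04, 2.98, 2.87 and 3.13 in SAMP8 and 4.16, 4.08, 3.67 and 4.62 in SAMR1 (−1.13, adjusted p = 0.0148). *H2-K1* was lower in SAMP8 on both of its probe sets called (−0.50 and −1.36), as was *Tapbp*, the chaperone tapasin (−0.25). All 4 probe sets of *H2-D1* and *H2-K1* called here are of the x_at kind, which can read several genes of the family, and sequence differences between the strains under the probes were not tested.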
